A study of Mus musculus with 6 samples.

Results

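The genes described here are the mouse orphan and adhesion G protein-coupled receptors, chosen by name: every protein-coding gene in the table whose symbol is Gpr followed by a digit, or Adgr followed by a family letter and a digit. There were 102 such genes among 55471 gene IDs, 27 of them adhesion receptors (Adgr) and 75 with Gpr symbols. They were measured in blood progenitors that carry the leukaemia fusion MLL-ENL, with and without LIN28B. LIN28B, an RNA-binding protein best known from fetal tissue, keeps let-7 microRNAs from maturing. The ME group carried the genotype MLL-ENL and the L28BME group carried LIN28B*MLL-ENL, with 3 libraries each and no group without the fusion. Both groups were GMLPs, progenitors of granulocytes, monocytes and lymphocytes, sorted from bone marrow by the absence of lineage markers and CD150 and the presence of Kit, Sca1 and CD48. Both were then cultured with doxycycline (DOX) for 3 days. The promoters that drive the transgenes, the age of the mice and whether the libraries of a group came from separate animals were not stated in the sources, so p-values measure the spread between these libraries, which may be technical.

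G protein-coupled receptors are membrane proteins that sense signals outside the cell and act through heterotrimeric G proteins inside the cell. Adhesion receptors carry a long extracellular part that cuts itself near the membrane, and the stretch behind the cut can act as a tethered agonist. Orphan receptors are those named before a ligand was known, and some members have since been paired with protons, lipids or metabolites. In blood, Adgrg1 (GPR56) is known from stem and progenitor cells, Adgre1 (F4/80) from macrophages, Adgre5 (CD97) from leukocytes and Adgrg3 (GPR97) from granulocytes. Several genes with Gpr symbols, such as Gpr107, Gpr108 and Gpr89, encode membrane proteins of the Golgi and not classical receptors.

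The levels are TPM, transcript abundance scaled by gene length and by the library total. Among the genes of the sort, Kit averaged 94.1 TPM in ME and 79.2 in L28BME, Cd48 was at 297 and 228 TPM, and Slamf1, which encodes CD150, stayed under 1 TPM in every library. Cd48 was called lower in L28BME (limma adjusted p = 0.00089) and Kit was not called (adjusted p = 0.311). Of the progenitor genes on the same list, Flt3 rose from 96.6 to 187 TPM (limma adjusted p = 0.00016) and Cd34 fell from 506 to 440.2 TPM (adjusted p = 0.00385). Ly6a, which encodes Sca1, was low for cells sorted on it, measured here after culture, at 10.6 ± 1.09 in ME and 2.07 ± 0.97 in L28BME. It was called lower in L28BME (log2 difference -1.96, limma adjusted p = 0.00376). Summed markers of neutrophils lay between 202 and 209 TPM in ME and between 522 and 542 TPM in L28BME, with 4 of 9 called higher. Most of both sums was S100a8, at 93.8 TPM in ME and 240.6 in L28BME, and S100a9, at 85.7 and 237.2 TPM. Ly6g, Mmp9 and Retnlg reached at most 1.18 TPM in any library. Those of macrophages lay between 97.6 and 98.3 TPM and between 83.4 and 88.7 TPM, with 1 of 10 called higher (Csf1r), 1 lower (Cd68) and C1qa and Vsig4 at 0. Those of megakaryocytes lay between 83.1 and 87.0 TPM in ME and between 139 and 158 TPM in L28BME, with 5 of 7 called higher. Those of B cells rose for 2 of 8 and of eosinophils for 2 of 7, and those of mast cells and basophils fell for 2 of 7. Those of endothelial and stromal cells summed to at most 0.471 TPM in any library. The part that shifts in cell makeup play in the receptor values was not tested, and in bulk RNA fewer cells of a type and less RNA per cell cannot be told apart.

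Because LIN28B acts on let-7, the sites of that microRNA in the 3′ UTRs of the receptors are shown first, with the microRNA itself. The family has 9 mature members here with 1 shared seed (bases 2 to 8, in capitals), and the target letters CTACCTC pair with it. The sites are from GENCODE M21 transcripts on GRCm38, read 5′ to 3′ on the strand of the gene, with the 7 pairing bases in capitals, for each tested receptor that holds one.
mmu-let-7a-5p: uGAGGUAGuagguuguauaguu
Gpr157 (chr4:150102535-150102557, plus strand): tcagtatggactcttCTACCTCc
Gpr157 (chr4:150103668-150103690, plus strand): gaacttaagattttcCTACCTCa
Gpr132 (chr12:112851269-112851291, minus strand): tgagtcattcctgtgCTACCTCa
Gpr107 (chr2:31215500-31215522, plus strand): ctggggtgagttactCTACCTCc
Gpr137 (chr19:6938110-6938132, minus strand): ccacactggagccggCTACCTCt
The Gpr132 site and the second Gpr157 site end in an adenine opposite base 1 of the microRNA, the longest class of seed match. Only the transcript strand was searched. A site was found in 4 of the 27 tested receptors (14.8%) and in 12 of 98 receptors with an annotated 3′ UTR. Among all tested genes with a 3′ UTR, 11.2% held a site. The share was 20.3% among those called higher in L28BME, 8.44% among those called lower and 10.4% among those not called. None of the 3 receptors called higher and none of the 5 called lower held these letters, which says only that they are not in the annotated 3′ UTRs.

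Most of the 102 receptors were not detected or lay at very low levels. Of these, 40 were listed at 0 in every library, 35 were above 0 but did not reach 1 TPM in at least 3 of the 6 libraries, and 27 passed that filter and were tested. The adhesion receptors held 10 of the tested genes and the Gpr symbols 17. The third-highest value was 1.48 TPM for Gpr183, the lowest inside the filter, and 0.762 TPM for Gpr55, the highest outside it. Of the tested receptors, 1 reached 1 TPM in L28BME only, so it passed the filter through the group where it is high.

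Adgrg1 and Adgrg3, neighbours on chromosome 8, dominated the receptor RNA. Together they made up 49.0, 52.0 and 50.8% of the summed TPM of all 102 members in the ME libraries and 40.6, 48.4 and 50.1% in the L28BME libraries. The sum over all members was 864 ± 17.7 in ME and 816 ± 42.6 TPM in L28BME (means with SD throughout, n = 3 in each group). Gpr171 came next in both groups. After it, Gpr108 was the highest in ME, at 38.5 TPM, ahead of Adgra3, Gpr141, Adgre5 and Adgrl4 at 30.4 to 31.6 TPM. In L28BME Gpr141 followed Gpr171, at 47.5 TPM, ahead of Gpr108 at 37.1 and Adgre5 at 33.6 TPM, as the plot of levels by library shows.

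**Figure D1:**
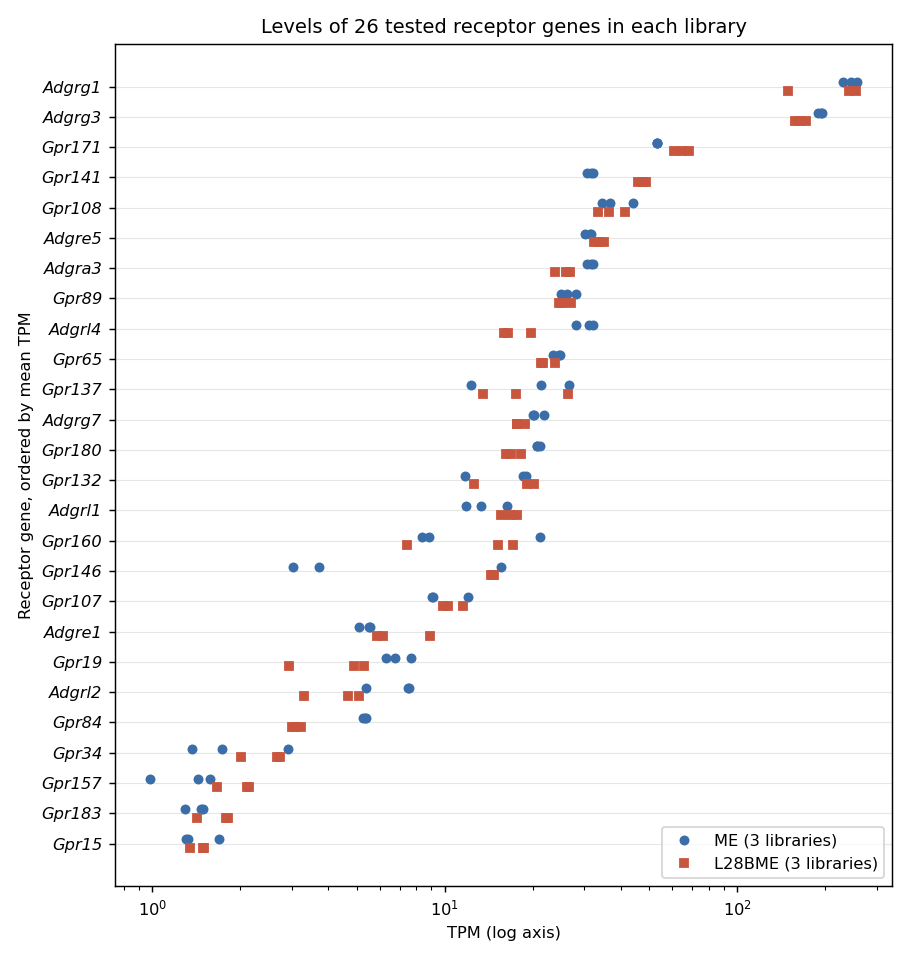
Level of 26 of the 27 tested receptor genes in TPM on a log axis, ordered by mean; circles are the 3 ME libraries and squares the 3 L28BME libraries. Adgrg1 and Adgrg3 stand above 140 TPM in every library, and the points of Gpr146, Gpr160 and Gpr137 are spread within groups.

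In L28BME cells, 3 of the 27 tested receptors were higher and 5 were lower than in ME cells, and 19 were not called. Gpr141 and Gpr171 were among those that rose, as was the receptor that passed the filter only through L28BME. Adgrl4, Gpr84, Adgra3, Gpr180 and Adgrg3 fell. A gene was called at a Benjamini-Hochberg adjusted p under 0.05 over all genes tested, from limma on log2(TPM + 1). Of all 13348 genes tested, 14.9% were called, 8.28% higher and 6.6% lower. The groups did not overlap for 14 of the 27 receptors, 6 with L28BME above and 8 below, and for 36.7% of all genes tested. The median log2 difference was 0.01 over the tested receptors and 0.00 over all genes tested, and the median absolute difference was 0.23 and 0.14. Over the 8375 tested genes averaging 1 to 40 TPM the median absolute difference was 0.16. The median within-group SD on the log2 scale was 0.13 over the tested receptors and 0.11 over all genes tested. The calls of Gpr141, Gpr84 and Adgrl4 held without any 1 of the 6 libraries, whereas those of Gpr171, Adgra3, Gpr180 and Adgrg3 did not.

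**Figure D2:**
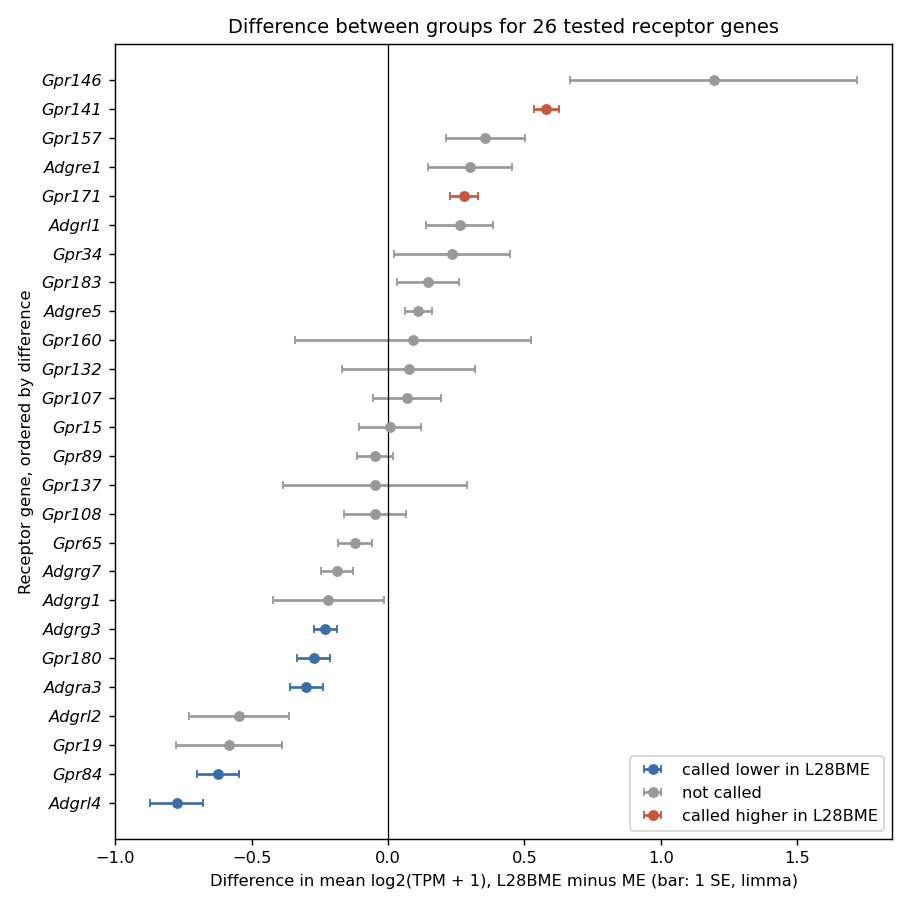
Difference in mean log2(TPM + 1), L28BME minus ME, for 26 of the 27 tested receptor genes, with bars of 1 SE from limma. The 7 coloured genes were called, from -0.77 for Adgrl4 to 0.58 for Gpr141, and Gpr146 has the widest bar.

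The adhesion G family held the most abundant receptors. Adgrg1 and Adgrg3 lie side by side on the plus strand of chromosome 8 in GRCm38, with Adgrg1 (ENSMUSG00000031785) at 94974751 to 95014217 and Adgrg3 (ENSMUSG00000060470) at 95017692 to 95045250. Their exons share no bases. Adgrg3, a receptor of granulocytes and their precursors, was at 195, 194 and 190 TPM across ME and at 163, 157 and 172 across L28BME. Of the markers, 4 of 9 for neutrophils and 2 of 7 for eosinophils were called higher in the same L28BME libraries. Those of mast cells and basophils had 2 of 7 called lower. Among all genes tested, 8.28% were called higher and 6.6% lower. The part of these cells in the Adgrg3 value was not tested. All 3 L28BME values of Adgrg3 were below all ME values, and the gene fell by 0.23 on the log2 scale (SE 0.041, limma adjusted p = 0.0169). Its call was lost without ME replicate 1, ME replicate 2 or L28BME replicate 1, at adjusted p = 0.0578, 0.0614 and 0.0597.

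Adgrg1, whose extracellular part binds collagen III and transglutaminase 2, was the most abundant receptor in 5 of the 6 libraries. It was at 230, 246 and 257 TPM in ME and at 149, 242 and 255 in L28BME. L28BME replicate 1 was low and the other 2 lay among the ME values, the groups overlapped and the gene was not called (log2 difference -0.22, SE 0.20, limma adjusted p = 0.527). Without that library the log2 difference was 0.02 (adjusted p = 0.831). In the same library Adgrg3 exceeded Adgrg1, with an Adgrg1 to Adgrg3 ratio of 0.913, whereas the ratio was 1.18 to 1.36 in ME and 1.53 and 1.48 in L28BME replicates 2 and 3. Adgrg7, best known from the gut, was at 20.2, 20.03 and 21.8 TPM in ME and at 17.7, 17.6 and 18.8 TPM in L28BME. Its groups did not overlap, with L28BME below, but it did not pass (log2 difference -0.19, SE 0.060, limma adjusted p = 0.0941).

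Among the latrophilins, which bind teneurins and FLRT proteins on other cells, and their relative Adgrl4 (ELTD1), 1 of 3 tested genes was called. The share called was 14.9% over all genes tested. Adgrl4 (ENSMUSG00000039167, chromosome 3, 151437887 to 151545086 on the plus strand) is best known from vessel endothelium. It was at 32.02, 28.02 and 31.1 TPM in ME and at 19.8, 16.0 and 16.4 TPM in L28BME. Every L28BME library was below every ME library, and the gene fell by 0.77 on the log2 scale (SE 0.097, limma adjusted p = 0.00494), a 1.75-fold higher mean in ME. The endothelial markers Cdh5 and Kdr were listed at 0 in every ME library and reached at most 0.021 and 0.133 TPM in L28BME. Adgrl2 was at 7.52, 5.36 and 7.502 TPM in ME and at 5.09, 4.68 and 3.29 TPM in L28BME, with no overlap between groups, and did not pass (log2 difference -0.54, SE 0.18, limma adjusted p = 0.107). Adgrl1 had the opposite sign, at 13.8 ± 2.30 in ME and 16.6 ± 1.02 TPM in L28BME, with overlapping groups (log2 difference 0.26, limma adjusted p = 0.212). Known partners of the latrophilins, Flrt1 to Flrt3 and Tenm1 to Tenm4, were all under 0.05 TPM on average in both groups.

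Adgra3 (GPR125), an adhesion receptor with leucine-rich repeats, was at 31.7, 30.8 and 32.3 TPM in ME and at 26.8, 26.0 and 23.7 TPM in L28BME. All L28BME values were lower, and the gene fell by 0.30 on the log2 scale (SE 0.060, limma adjusted p = 0.0246). This call was lost without any 1 library other than L28BME replicate 1, at adjusted p = 0.0527 to 0.0819. Neither tested receptor of the adhesion E family, which is known from leukocytes, was called. Adgre5 (CD97), which binds the complement regulator CD55, was at 30.1, 31.4 and 31.6 TPM in ME and at 34.9, 32.4 and 33.6 TPM in L28BME. The groups did not overlap, with L28BME above, but the difference was small (log2 difference 0.11, SE 0.049, limma adjusted p = 0.191). Adgre5 shares 895 exonic bases with Ddx39, an RNA helicase gene on the opposite strand at 178 to 267 TPM. With exon-sharing genes on either strand summed the log2 difference was -0.21 (limma adjusted p = 0.271), but that sum is mostly Ddx39. With only same-strand genes summed it was 0.13. Adgre1 (F4/80) was at 5.38 ± 0.261 in ME and 6.96 ± 1.66 TPM in L28BME, also without overlap and not called (adjusted p = 0.251).

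Of the 17 tested genes with Gpr symbols, 2 rose and 2 fell, beside 8.28% called higher and 6.6% lower among all genes tested. Gpr141 (ENSMUSG00000053101, chromosome 13, 19749682 to 19824257 on the minus strand), an orphan receptor of myeloid cells, had the smallest p of all 27. It was at 30.6, 32.2 and 31.5 TPM in ME and at 48.7, 45.95 and 47.8 TPM in L28BME. The libraries of a group lay close together and far from the other group, a 1.51-fold rise (log2 difference 0.58, SE 0.045, limma adjusted p = 0.00105). Of the markers, 4 of 9 for neutrophils, 2 of 7 for eosinophils and 5 of 7 for megakaryocytes were called higher in L28BME. Those called lower were 2 of 7 for mast cells and basophils and 1 of 5 for dendritic cells. Macrophage markers had 1 of 10 higher and 1 lower. The part of cell makeup in this rise was not tested. Its neighbour and paralog Gpr141b stayed under 0.15 TPM in every library and was not tested. Gpr171 (ENSMUSG00000050075, chromosome 3, 59096448 to 59101821 on the minus strand), a receptor related to the P2Y family, was at 53.2, 53.2 and 53.04 TPM in ME and at 65.0, 68.4 and 60.95 TPM in L28BME. The rise was 1.22-fold with no overlap (log2 difference 0.28, SE 0.050, limma adjusted p = 0.0179). It was not called without ME replicate 1, 2 or 3 or L28BME replicate 1, at adjusted p = 0.0562 to 0.0616.

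Gpr84 (ENSMUSG00000063234, chromosome 15, 103308235 to 103310612 on the minus strand), a receptor of myeloid cells for medium-chain fatty acids, was at 5.26, 5.31 and 5.39 TPM in ME and at 3.22, 3.01 and 3.08 TPM in L28BME. Both groups were tight and separate, and the gene fell by 0.62 on the log2 scale (SE 0.077, limma adjusted p = 0.00469). Gpr180, a membrane protein whose ligand is debated, was at 20.7, 20.6 and 21.1 TPM in ME and at 16.2, 18.2 and 16.8 TPM in L28BME. It fell by 0.27 on the log2 scale without overlap (SE 0.060, limma adjusted p = 0.0327). Its call was lost without any 1 library other than L28BME replicate 2, at adjusted p = 0.0851 to 0.0995, and at 0.0522 with no filter on low values.

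**Figure D3:**
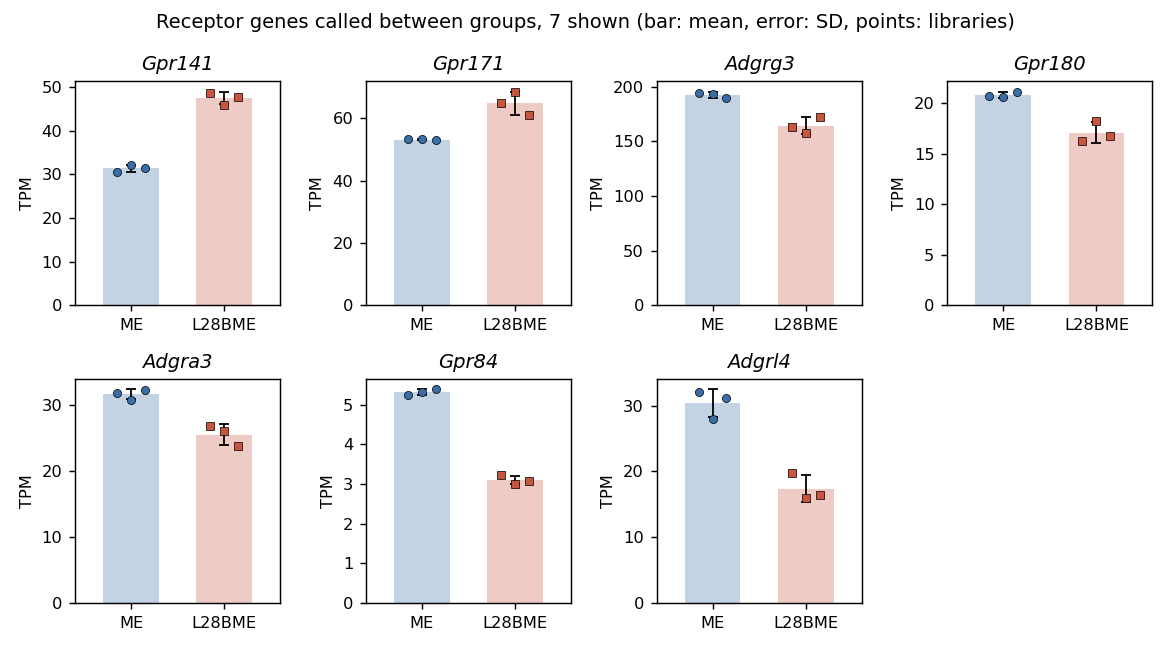
TPM of 7 of the 8 receptor genes called between groups; bars are means, error bars SD, and points the 3 libraries of each group. In all 7 panels the points of ME and L28BME do not overlap, and Gpr84 has the lowest values, from 3.01 to 5.39 TPM.

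Sensors of acid and lipids showed no call other than Gpr84. Gpr65, a proton-sensing receptor of leukocytes, was at 24.3 ± 0.727 in ME and 22.3 ± 1.39 TPM in L28BME (limma adjusted p = 0.254). Its relative Gpr132, which responds to oxidised fatty acids, was at 16.4 ± 4.04 and 17.3 ± 4.17 TPM (adjusted p = 0.872). Gpr183, an oxysterol receptor, was at 1.41 ± 0.102 TPM in ME and 1.67 ± 0.217 in L28BME (adjusted p = 0.447). Gpr34, a receptor for lysophosphatidylserine, was at 2.01 ± 0.813 and 2.47 ± 0.406 TPM in the same order (adjusted p = 0.519). Gpr15, a homing receptor of lymphocytes, was at 1.44 ± 0.218 and 1.45 ± 0.0900 TPM. It shares 204 exonic bases with Cpox, a haem synthesis gene on the opposite strand at 24.6 to 29.4 TPM.

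Among the remaining orphans, Gpr19 was lower in each L28BME library, at 6.29, 6.74 and 7.67 TPM in ME against 5.28, 4.90 and 2.93 TPM in L28BME. L28BME replicate 3 was the lowest, and the gene did not pass (log2 difference -0.58, SE 0.19, limma adjusted p = 0.105), nor did it without that library (adjusted p = 0.112). Gpr157, the 1 tested receptor with 2 let-7 sites, was at 1.57, 1.43 and 0.983 TPM in ME and at 1.66, 2.14 and 2.11 TPM in L28BME. The groups did not overlap, with L28BME above, and the gene was not called (log2 difference 0.36, SE 0.14, limma adjusted p = 0.164). The other 3 tested holders of a site were not called either: Gpr107 had a log2 difference of 0.07, Gpr132 of 0.08 and Gpr137 of -0.05. The Golgi proteins Gpr107, Gpr108 and Gpr89 were at 10.1 ± 1.69, 38.5 ± 4.93 and 26.4 ± 1.59 TPM in ME and at 10.6 ± 0.889, 37.1 ± 4.01 and 25.6 ± 1.29 TPM in L28BME, with limma adjusted p = 0.754, 0.821 and 0.684.

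A few receptors varied widely between libraries of 1 group. Gpr146, an orphan receptor, was at 15.5, 3.72 and 3.02 TPM in ME and at 14.6, 14.3 and 14.7 TPM in L28BME. ME replicate 1 was as high as the L28BME libraries and the other 2 were low, and the gene was not called (log2 difference 1.19, SE 0.53, limma adjusted p = 0.193). Without ME replicate 1 the log2 difference was 1.83 and it was called (adjusted p = 0.00269). Gpr160 was at 8.80, 8.36 and 21.2 TPM in ME and at 17.1, 7.42 and 15.2 TPM in L28BME, with high and low libraries in both groups. Gpr137, a lysosomal membrane protein, was at 26.6, 12.2 and 21.4 TPM in ME and at 26.5, 13.5 and 17.6 TPM in L28BME. It shares 524 exonic bases with Bad, a cell death gene on the opposite strand at 19.7 to 36.8 TPM. The within-group SD on the log2 scale was 0.79 for Gpr146, 0.65 for Gpr160 and 0.51 for Gpr137, beside a median of 0.11 over all tested genes. For the called genes Gpr84 and Gpr141 it was 0.029 and 0.040.

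**Figure D4:**
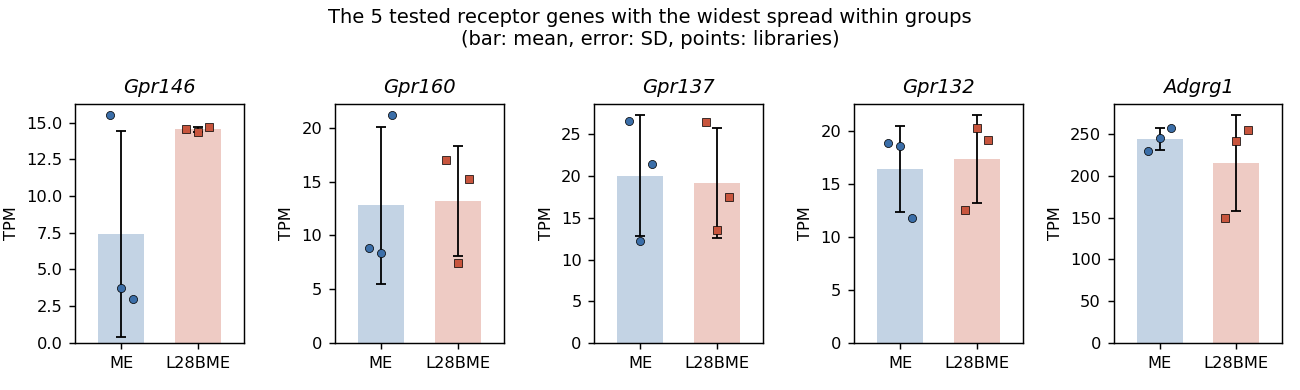
TPM of the 5 tested receptor genes with the largest within-group SD on the log2 scale; bars are means, error bars SD, and points the 3 libraries of each group in the order of their replicate number. Gpr146 has 1 ME library at 15.5 TPM beside 3.72 and 3.02 TPM, and Adgrg1 has 1 L28BME library at 149 TPM.

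Of the 35 receptors above 0 that were not tested, 33 stayed under 1 TPM in every library and 25 under 0.5 TPM. The groups did not overlap for 11 of them, 7 with L28BME above and 4 below, beside 10.1% of the 10592 genes of any level that were above 0 and not tested (5.01% above and 5.05% below). These sets were not matched for level, and the shares were not compared by a test. Gpr35, a receptor of gut and immune cells, was at 0.0386, 0.104 and 0.098 TPM in ME and at 0.357, 0.519 and 0.504 TPM in L28BME. Gpr12, which raises cyclic AMP without a ligand, was at 0.0845, 0 and 0.122 TPM in ME and at 0.578, 0.449 and 0.520 TPM in L28BME. Adgrd1, an adhesion receptor, went the other way, at 0.979, 0.715 and 0.713 TPM in ME and at 0.321, 0.112 and 0.160 TPM in L28BME. These 3 were called when every gene above 0 in some library was tested (limma adjusted p = 0.0164, 0.0111 and 0.0263), beside 6.6% of the 23940 genes in that fit, at levels where a TPM table gives no depth to judge by. Gpr55, a receptor for lysophosphatidylinositol, was at 0.563 TPM on average in ME and 1.03 TPM in L28BME and was not tested under the main filter. The 40 receptors listed at 0 in every library included Adgrg2, Gpr83, Gpr37l1 and the single adhesion V gene, Adgrv1.

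Binding partners of the receptors changed in both directions. Of 22 genes on a list of ligands and ligand enzymes, 8 were tested, 3 rose and 1 fell, beside 14.9% called among all genes tested. The list was chosen with earlier results known and only 8 of its genes passed the filter, so this share was given no test. Cd55, the partner of Adgre5, rose from 21.8 ± 0.692 to 34.2 ± 1.04 TPM (log2 difference 0.62, limma adjusted p = 0.00114). Thy1, another surface protein that Adgre5 binds, fell from 144 ± 5.38 to 82.9 ± 7.56 TPM (log2 difference -0.79, adjusted p = 0.00162). Tgm2, the transglutaminase that Adgrg1 binds, rose from 24.7 ± 0.0931 to 36.4 ± 0.842 TPM (log2 difference 0.54, adjusted p = 0.00113), whereas the collagen partner Col3a1 was under 0.05 TPM. Psap, whose product prosaposin is reported as a ligand of Gpr37 and Gpr37l1, rose from 459.5 ± 9.71 to 567.5 ± 11.2 TPM (adjusted p = 0.0021), while both receptors were listed at 0 in every library. Hsd3b7, which inactivates the oxysterol ligand of Gpr183, was at 51.6 ± 2.88 in ME and 33.03 ± 10.7 TPM in L28BME and was not called (adjusted p = 0.126). Without L28BME replicate 3, which was at 20.7 TPM, it was called lower (log2 difference -0.39, adjusted p = 0.028). Col4a1, Col4a2 and Prnp, of which Prnp and collagen IV bind Adgrg6, were not called, and Adgrg6 itself stayed under 0.2 TPM in every library.

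The shared machinery behind the receptors was called about as often as other genes. Of 74 genes of G protein signalling, 43 were tested, 3 rose and 3 fell, a share of 13.95% beside the 14.9% of all genes tested. None of the 8 tested G alpha subunits and none of the 4 tested G beta subunits was called. At an unadjusted limma p under 0.05 there were 1 of the 8, Gna15, and 3 of the 4, Gnb1, Gnb4 and Gnb5. The same threshold held 3954 of all 13348 genes tested. Gnb1 averaged 255 ± 2.93 in ME and 275 ± 7.94 TPM in L28BME (limma adjusted p = 0.0716), and Gnb2 293 ± 33.9 and 257 ± 13.5 TPM (adjusted p = 0.229). The most abundant, Gnas and Gnai2, which stimulate and inhibit adenylyl cyclase, were at 661 ± 105 and 501 ± 18.3 TPM in ME and at 726 ± 80.8 and 520.5 ± 20.5 TPM in L28BME (limma adjusted p = 0.532 and 0.446). Among 7 tested G gamma subunits, Gng12 fell from 132, 144 and 146 TPM to 89.7, 94.8 and 86.9 TPM (log2 difference -0.63, SE 0.055, limma adjusted p = 0.00158). The arrestin Arrb2 and the receptor kinase Grk2, which switch receptors off, were at 173 ± 4.12 and 198 ± 4.03 TPM in ME and at 167 ± 6.03 and 215 ± 12.3 TPM in L28BME, and were not called. Arrb1 was at 32.2, 31.0 and 30.01 TPM in ME and at 15.8, 10.4 and 32.95 TPM in L28BME, with 1 L28BME library as high as ME (adjusted p = 0.231).

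RGS proteins, which speed the return of G alpha to its inactive state, had 4 calls among 9 tested genes, 3 higher and 1 lower, beside 14.9% of all genes tested, and no test compared this class with the others. Rgs10 rose from 60.1, 61.0 and 57.8 TPM to 79.0, 79.5 and 77.4 TPM (log2 difference 0.39, SE 0.037, limma adjusted p = 0.00208). Rgs3 rose from 3.91 ± 0.643 to 6.73 ± 0.409 TPM (adjusted p = 0.0162). Rgs11 averaged 0.584 ± 0.132 TPM in ME and 2.10 ± 0.504 TPM in L28BME. Rgs11 stayed under 1 TPM in every ME library and passed the filter only through the L28BME libraries, where it was high. Its call is therefore not free of the filter, and its p is not given. The counts of partners and RGS genes called include it. Rgs2 fell from 28.6 ± 0.792 to 23.7 ± 1.02 TPM (log2 difference -0.26, adjusted p = 0.0258). The phospholipase Plcb3, an effector of Gq, fell from 38.0 ± 1.38 to 31.5 ± 0.953 TPM (log2 difference -0.26, adjusted p = 0.0198). The calls of Gng12 and Rgs10 held without any 1 library. Rgs11 was lost without ME replicate 3. Rgs3 was lost without ME replicate 1 or 3 or L28BME replicate 1 (adjusted p = 0.0543 to 0.0592). Rgs2 was lost without any 1 library other than L28BME replicate 2 (0.0581 to 0.0867). Plcb3 was lost without ME replicate 2 or 3 or L28BME replicate 1 or 3 (0.056 to 0.0667) and with exon-sharing genes on either strand summed (0.0572).

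**Figure D5:**
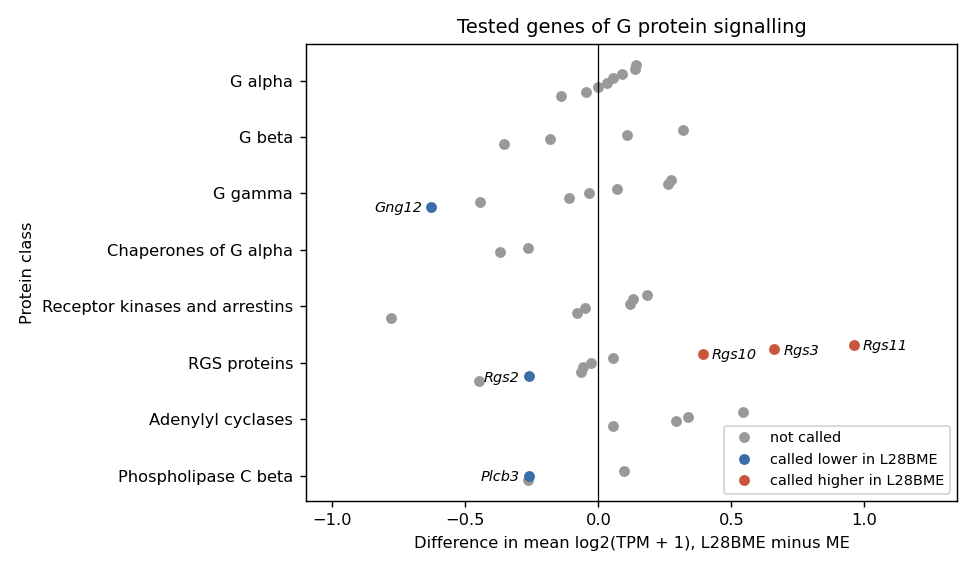
Difference in mean log2(TPM + 1), L28BME minus ME, for the 43 tested genes of G protein signalling, by protein class; each point is 1 gene and the 6 called genes are coloured and named. The called points run from -0.63 for Gng12 to 0.96 for Rgs11, and all G alpha points lie within 0.15 of 0. Rgs11 passed the filter only through its L28BME libraries.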

How the data were processed

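Total RNA of 6 GMLP cultures, 3 per group, was made into stranded mRNA libraries, per the labels' protocols. Tools named in the submitters' processing notes are StringTie, HISAT2, DESeq2 and bcl2fastq, with the build GRCm38. Their versions and whether strand was used were not stated. Each deposited column holds TPM per gene for 1 library and sums to between 999919 and 999996. TPM keep no read totals, so depth is unknown, and neither count models nor counting intervals were used. The deposited percent GC of each gene, 34.2 to 71.12 in the receptors, was not used in a test. Of the 55471 gene IDs, 431 were on more than 1 row, 0 of them with values on several, and the row with values was kept.

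The 13348 genes that reached 1 TPM in at least 3 libraries were tested on the log2(TPM + 1) scale with limma 3.58.1 (R 4.3.3, intensity trend, two-sided, Benjamini-Hochberg adjustment over all of them). Differences on this scale understate changes of low genes. The procedure was tested on simulated data. Members, lists and tests were chosen with earlier results of these data known. Some receptors, 1 of them called, enter the counts and sums but are not reported here. Of the others, every called receptor, every tested receptor averaging 10 TPM or more in a group and the 6 uncalled ones with the smallest p are named, as are the called partner and ligand genes and up to 4 uncalled ones per list with the highest mean; other named genes were chosen after their values were seen. Positions, exon overlaps and 3′ UTRs came from GENCODE M21, which held 101 of the 102 receptors (not Gpr52), and microRNAs from RefSeq (GRCm38.p6). Libraries with equal replicate numbers did not deviate together and were not paired. The settings varied were the pseudocount (0.1, 0.5), the filter (none, 5 TPM), scaling (trimmed mean of M-values computed on the TPM, quantile), no trend, a replicate block, exon-sharing genes summed, and leaving out each library.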

Additional observations from a re-analysis of the deposited data

How the results depend on the processing

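The counts of receptors called, 3 higher and 5 lower, were the same with either other pseudocount, with either other scaling and without an intensity trend. With no filter on low values 5 were higher, with Gpr35 and Gpr12 gained, and 5 lower, with Adgrd1 gained and Gpr180 lost. With a minimum of 5 TPM, 2 were higher and 5 lower, and the receptor that passed the main filter only through L28BME was lost. Summing exon-sharing genes, on the same or either strand, added Gpr21, whose sum is mostly Rabgap1. Leaving out 1 library gave 2 to 3 receptors higher and 2 to 4 lower, 2 to 4 signalling partners higher and 1 to 3 lower, and 3 ligand genes higher and 1 to 2 lower. There were 2 receptors lower without ME replicate 1 or 2, and 3 without ME replicate 3 or L28BME replicate 1 or 3; partners lower were 1 without ME replicate 2 or 3. Ligand genes lower were 2 with exon-sharing genes summed on the same or either strand, with Hsd3b7 gained.

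Same-numbered libraries did not deviate together: the correlations of their deviations were -0.03, -0.07 and -0.05, and 0 of 6 libraries correlated best with its own number. With the replicate block the counts were 1 receptor higher and 2 lower, 1 partner higher and 1 lower, and Gpr141, Gpr84 and Adgrl4 stayed called. Over all genes the counts were 1105 higher and 881 lower, against 548 and 400 with the block and 617 to 693 and 461 to 582 without 1 library.

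With exon-sharing genes on either strand summed, the value for Adgre5 was -0.21, but that sum is mostly Ddx39. Some receptors that were not called changed sign when 1 library was left out. Without 1 library the log2 difference of Adgrg1 ran from -0.36 to 0.025, Gpr108 from -0.13 to 0.050, Gpr132 from -0.13 to 0.28, Gpr137 from -0.35 to 0.18 and Gpr160 from -0.13 to 0.50. The causes were not tested. TPM hold no depth, so how far counting error limits the receptors under 1 TPM is not known.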
